A study of Mus musculus with 4 samples.

Results

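The glycolysis and hypoxia genes examined here are 38 mouse genes that carry glucose into the cell, break it down to pyruvate and lactate, sense oxygen through the hypoxia-inducible factors (HIFs), or are transcribed in response to those factors. They were taken by name from the non-control probes of a mouse expression array. All 38 had a probe, which made 61 of the 39429 probes, or 38 of 31829 gene names, and each gene was read from its probe of highest mean intensity over the 4 arrays.

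RNA was taken from breast cancer cells grown out of MMTV-Neu tumours. The mice carry a transgene whose mouse mammary tumour virus promoter drives the Neu oncogene (the rat form of Her2) in the mammary epithelium. The study compared cells of such tumours that lacked or kept Pak1, a p21-activated kinase. There were 2 groups of 2 samples, Pak1-/- and Pak1+/+, and both carried the Neu transgene. All 4 cultures had been grown in low calcium medium with 5% horse serum, kept without serum for 3 h and then given EGF for 15 min. Per the series design, each group drew on 2 tumours, and the methods call the cells tumour-derived cell lines. The p-values below measure only the spread between these samples, which may be partly technical, since the labels do not say which tumour or line a sample came from. The arrays labelled Pak1-/- and Pak1+/+ lay at different positions of 1 slide, and a position effect cannot be told apart from genotype.

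Glycolysis turns glucose into pyruvate, and cancer cells commonly use it heavily and release much of the pyruvate as lactate even when oxygen is present. The HIF-1alpha and HIF-2alpha proteins pair with a common partner, Arnt. They bind a short sequence, commonly with the core ACGTG, near genes of glucose uptake, glycolysis, pH control and blood vessel growth. When oxygen is present, prolyl hydroxylases mark the HIF-alpha proteins for destruction through the Vhl protein. HIF activity is therefore set largely at the level of the protein, which an expression array does not measure, and several hydroxylase genes are themselves HIF targets.

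The arrays were alike in signal. The median spot intensity lay between 322 and 331, and 62.2% to 70.4% of the probes were well above background. Correlation across the probes tested was 0.997 within each group and 0.954 to 0.959 between groups (genes are not independent replicates). The Pak1 probe was at 12.21 and 12.25 (normalized log2 intensity) on the arrays labelled Pak1-/- and at 12.04 on both of those labelled Pak1+/+, a difference of 0.19 (SE 0.07) that did not pass in limma (adjusted p = 0.070). Cyclic loess made it 0.27 (adjusted p = 0.027). The labels therefore rest on no drop of this probe, and every direction below is that of the labels. Whether the probe lies in the deleted part of the gene is not stated. Of the epithelial markers, 7 of 7 were tested and 5 were higher in the arrays labelled Pak1-/- (Krt14 by 2.83 or 7.12-fold, Cdh1 by 1.19 or 2.27-fold, Krt8 by 0.57, Krt5 by 0.50 and Krt18 by 0.27, while Epcam at -0.23 and Krt19 at -0.64 did not pass). Their summed linear intensity was 993425 to 1009140 against 728576 to 731325. Of the leukocyte markers 6 of 8 were tested and 2 were lower (Emr1 at -1.05 and Ptprc at -0.45), while Itgam (0.49), Cd3e (0.25), Csf1r (0.12) and Cd68 (-0.20) did not pass. They summed to 52357 to 75023 against 43780 to 48305, most of it from Itgam. Fibroblast markers (3 of 7 tested, 1 higher, Col1a1 by 1.12) summed to 1295 to 1446 against 1074 to 1142. Among the endothelial markers 4 of 5 were tested and 0 passed in limma, with Pecam1 at -0.09 and a sum of 10047 to 10425 against 9133 to 10912, and 0 of the 4 adipocyte markers could be tested. Over all probes 23.3% passed as higher and 28.6% as lower. Whether these markers have a part in the results below was not tested.

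Promoter sequences are shown for the genes that changed at least 2-fold and hold ACGTG, the only form of the HIF core searched. The sequences let a reader compare genes that moved in opposite directions. They are the 250 bases before the transcription start in RefSeq (GRCm38.p6), 5′ to 3′ on the strand of the gene. Capitals mark ACGTG, its reverse complement CACGT, or the overlap of both, CACGTG, which was counted as 2 matches. The 3 higher genes are Slc2a1 (chr4:119108495-119108744, plus strand), Car9 (chr4:43506776-43507025, plus strand) and P4ha2 (chr11:54100674-54100923, plus strand). The 4 lower genes are Hk2 (chr6:82774455-82774704, minus strand), Hif1a (chr12:73907617-73907866, plus strand), Egln3 (chr12:54203875-54204124, minus strand) and Ankrd37 (chr8:45999851-46000100, minus strand).
Slc2a1: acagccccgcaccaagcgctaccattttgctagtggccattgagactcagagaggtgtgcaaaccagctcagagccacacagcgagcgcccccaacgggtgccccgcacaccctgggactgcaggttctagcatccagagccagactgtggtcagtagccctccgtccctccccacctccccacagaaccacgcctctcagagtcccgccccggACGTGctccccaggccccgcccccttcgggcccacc
Car9: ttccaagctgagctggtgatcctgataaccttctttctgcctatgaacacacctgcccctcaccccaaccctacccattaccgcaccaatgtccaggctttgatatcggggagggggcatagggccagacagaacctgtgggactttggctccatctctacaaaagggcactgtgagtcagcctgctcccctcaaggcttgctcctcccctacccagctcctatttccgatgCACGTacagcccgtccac
P4ha2: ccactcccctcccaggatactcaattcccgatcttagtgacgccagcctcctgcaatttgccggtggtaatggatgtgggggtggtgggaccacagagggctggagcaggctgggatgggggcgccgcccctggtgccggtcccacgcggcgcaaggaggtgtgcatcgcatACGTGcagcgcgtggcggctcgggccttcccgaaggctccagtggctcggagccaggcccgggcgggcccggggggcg
Hk2: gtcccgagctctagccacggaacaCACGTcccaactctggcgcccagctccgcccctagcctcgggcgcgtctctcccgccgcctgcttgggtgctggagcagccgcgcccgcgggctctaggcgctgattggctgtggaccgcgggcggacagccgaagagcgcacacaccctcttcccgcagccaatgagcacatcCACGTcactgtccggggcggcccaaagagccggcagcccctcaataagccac
Hif1a: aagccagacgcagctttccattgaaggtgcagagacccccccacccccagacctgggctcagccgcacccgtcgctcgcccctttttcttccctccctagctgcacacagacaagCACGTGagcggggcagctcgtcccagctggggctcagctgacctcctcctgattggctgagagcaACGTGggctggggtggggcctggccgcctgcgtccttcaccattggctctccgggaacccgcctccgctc
Egln3: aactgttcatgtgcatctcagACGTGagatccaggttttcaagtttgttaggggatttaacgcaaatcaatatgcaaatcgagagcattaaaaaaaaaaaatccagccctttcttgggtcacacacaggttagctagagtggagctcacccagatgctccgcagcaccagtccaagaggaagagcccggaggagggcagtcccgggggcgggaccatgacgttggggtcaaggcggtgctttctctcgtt
Ankrd37: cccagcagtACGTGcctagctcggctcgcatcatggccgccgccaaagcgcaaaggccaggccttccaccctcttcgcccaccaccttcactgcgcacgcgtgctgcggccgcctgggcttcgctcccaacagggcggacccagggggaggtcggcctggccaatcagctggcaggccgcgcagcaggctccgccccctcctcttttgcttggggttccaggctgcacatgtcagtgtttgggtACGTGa

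Of the 38 genes, 35 had at least 1 window in RefSeq (none was at hand for Slc2a3, Epas1 and Ndrg1). ACGTG, on either strand, lay in a window of 21 of these 35 genes (60.0%), against 4998 of 27025 genes (18.5%) in the whole table. Counted by window, since some genes have several, it was in 24 of 49 (49.0%) against 16.6%. The motif was held by 7 of 9 genes called higher below, 9 of 15 called lower and 5 of 11 that did not pass. A match is a description of the letters and not a binding site, and the genes were picked as a group known for HIF control. The whole table was not matched to these genes for base composition, so no cause of the gap is read.

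Both directions were present among the genes. Of the 37 genes tested, all of them well above background on all 4 arrays, limma called 25, with 10 higher and 15 lower in Pak1-/- by label (adjusted p under 0.05), and 12 did not pass. That is set against a background in which 51.9% of all 27229 probes passed, 23.3% as higher and 28.6% as lower. At least 2-fold changes were found for 4 higher and 6 lower genes, while 6.94% of all probes were that much higher and 5.6% that much lower. The groups did not overlap for 32 of 37 genes, against 78.2% of all probes. The median difference was -0.12 on the log2 scale (-0.05 over all probes) and the median size of the difference, sign aside, was 0.63 (0.33 over all probes). The first of these medians was -0.28 and -0.30 with the processed and the normexp signals scaled to the 75th percentile, and -0.21 without Pak1-/- replicate 2. Slc2a3 was the gene not tested, being dim on all 4 arrays.

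**Figure D1:**
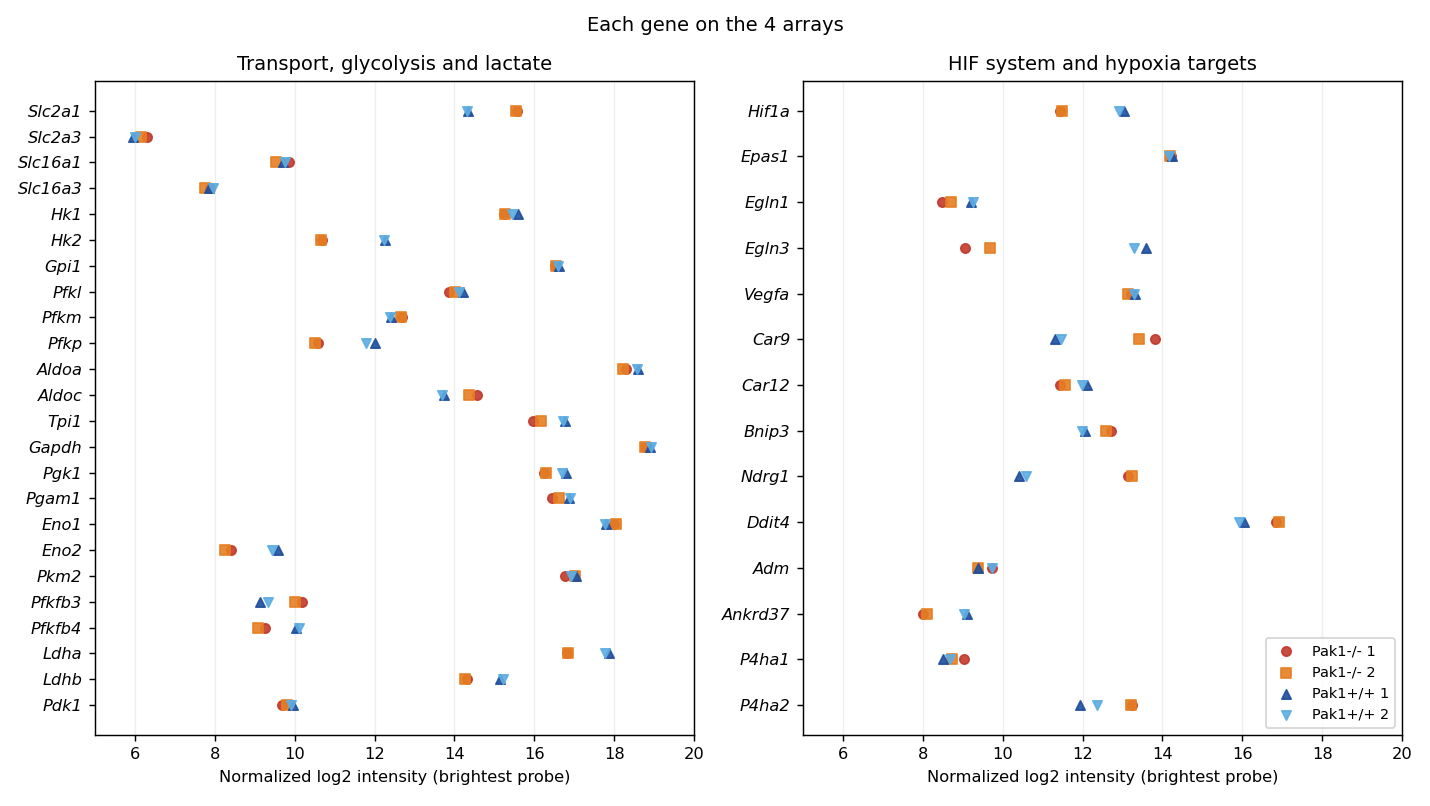
Normalized log2 intensity (x axis) of the brightest probe of each of the 38 genes (rows) on each of the 4 arrays, with glucose and lactate genes on the left and the HIF system with its targets on the right. Egln3 is at 9.05 and 9.68 on the arrays labelled Pak1-/- and at 13.59 and 13.30 on the others, and Ndrg1 and Car9 stand apart in the opposite direction. Intensities of different probes are not comparable with each other.

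Of the 4 transporters among the 38 genes, which move glucose in and lactate out, 3 were tested and Slc2a1 passed the threshold. Slc2a1 (GLUT1, the main glucose carrier of most cells; probe on mm9 chromosome 4, 118809864 to 118809923) was at 15.57 and 15.53 on the arrays labelled Pak1-/- and at 14.34 and 14.32 on those labelled Pak1+/+. Both values of the first group were above both of the second. The difference was 1.22 (SE 0.07, adjusted p = 0.00042 in limma), a 2.33-fold higher level. Slc2a3 (GLUT3, a carrier of high affinity) stayed between 5.96 and 6.30, which is not well above background. The lactate carriers Slc16a1 (MCT1; 9.87, 9.54, 9.71 and 9.76) and Slc16a3 (MCT4; 7.87, 7.74, 7.86 and 7.96, both in the order Pak1-/- 1 and 2, then Pak1+/+ 1 and 2) overlapped between the groups, with differences of -0.03 and -0.10 that did not pass (adjusted p = 0.88 and 0.38 in limma). In a culture, fewer cells that carry a transcript and less transcript in each cell cannot be told apart, here and below.

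The enzymes that run from glucose to pyruvate were mixed, with 7 of 15 lower and 3 higher, where 28.6% and 23.3% of all probes were (51.9% in either direction) (from here on values of the arrays labelled Pak1-/- stand first and those of Pak1+/+ follow "against"), and the sharpest drops were those of Hk2, Pfkp and Eno2. Hk2 (hexokinase 2, an inducible form of the enzyme that traps glucose as its phosphate; chromosome 6, 82675056 to 82675115) read 10.68 and 10.67 against 12.27 and 12.23. The groups lay far apart, and the difference was -1.58 (SE 0.07, adjusted p = 0.00022 in limma), or 2.98-fold lower. Hk1, the widespread hexokinase, read 15.25 and 15.27 against 15.60 and 15.43, a difference of -0.26 that did not pass (adjusted p = 0.062), while a dimmer Hk1 probe differed by -0.49 (adjusted p = 0.022, lower). The brighter Hk1 probe passed as lower with the processed and the normexp signals scaled to the 75th percentile (-0.36 and -0.32, adjusted p = 0.0498 and 0.046 in limma) and with limma's intensity trend (adjusted p = 0.027), as did the mean over both probes (-0.37, adjusted p = 0.030), and it was at -0.13 with cyclic loess (adjusted p = 0.31). Gpi1, which isomerises glucose 6-phosphate, read 16.52 and 16.55 against 16.61 and 16.59, and its difference of -0.06 did not pass (adjusted p = 0.46). With the 2 scalings to the 75th percentile Gpi1 was at -0.28 (adjusted p = 0.053) and -0.30 (adjusted p = 0.028), and the second of these passed as lower.

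Phosphofructokinase, which commits sugar to glycolysis, is built from 3 related subunits that did not move together. Pfkp (platelet form; chromosome 13, 6581718 to 6583872) was at 10.59 and 10.51 against 11.999 and 11.78, a difference of -1.34 (SE 0.10, adjusted p = 0.00094 in limma) or 2.53-fold lower, and its dimmer probe differed by -0.44 (-0.89 with the mean over both probes). Pfkm (muscle form) was at 12.70 and 12.66 against 12.42 and 12.38, higher by 0.27 (adjusted p = 0.028), a call lost whichever sample was left out (0.25 to 0.30, adjusted p = 0.056 to 0.14 without Pak1-/- replicate 1 or 2 or Pak1+/+ replicate 1 or 2). Pfkl (liver form) was at 13.87 and 14.00 against 14.21 and 14.12, and its difference of -0.22 did not pass (adjusted p = 0.083, but 0.046 with limma's intensity trend). The enzymes that make and break fructose 2,6-bisphosphate, the strong activator of phosphofructokinase, went opposite ways. Pfkfb3 (mostly a kinase; chromosome 2, 11393453 to 11393512) was at 10.18 and 10.00 against 9.14 and 9.34, higher by 0.85 (SE 0.11, adjusted p = 0.0039). Pfkfb4 (chromosome 9, 108934652 to 108934711) was at 9.25 and 9.08 against 10.02 and 10.10, a difference of -0.89 (SE 0.09, adjusted p = 0.0019). In both genes the groups did not overlap.

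Aldolase splits the 6-carbon sugar. Its main form Aldoa was at 18.30 and 18.22 against 18.60 and 18.58, a difference of -0.33 (adjusted p = 0.018 in limma). Aldoc, the form known from brain, was at 14.55 and 14.37 against 13.74 and 13.68, higher by 0.75 (SE 0.09, adjusted p = 0.0031). Tpi1, which interconverts the triose phosphates, was at 15.98 and 16.17 against 16.77 and 16.72, a difference of -0.67 (adjusted p = 0.0044), and a dimmer probe of it was lower by 0.90. Pgk1, the first enzyme of the pathway to make ATP, was at 16.24 and 16.29 against 16.79 and 16.68, a difference of -0.47 (adjusted p = 0.0073). Pgam1, the phosphoglycerate mutase, was at 16.45 and 16.61 against 16.86 and 16.90, a difference of -0.35 (adjusted p = 0.026). The call of Aldoa was lost without Pak1-/- replicate 2 (-0.29), Pak1+/+ replicate 1 (-0.32) or Pak1+/+ replicate 2 (-0.34). That of Pgam1 was lost without Pak1-/- replicate 1 (-0.27), Pak1+/+ replicate 1 (-0.37) or Pak1+/+ replicate 2 (-0.33). With the processed signals scaled to the 75th percentile the differences were -0.64 for Aldoa and -0.61 for Pgam1.

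Enolase, which makes phosphoenolpyruvate, showed opposite directions in its forms. Eno2 (neuron-specific enolase; chromosome 6, 124710388 to 124710447) was at 8.41 and 8.26 against 9.57 and 9.44, a difference of -1.17 (SE 0.09, adjusted p = 0.0010 in limma) or 2.25-fold lower. Eno1, the widespread form, was at 18.01 and 18.04 against 17.79 and 17.77, higher by 0.24 (adjusted p = 0.036). The call of Eno1 was lost whichever sample was left out (0.23 to 0.26 without Pak1-/- replicate 1 or 2 or Pak1+/+ replicate 1 or 2). Its difference turned to -0.06 and -0.05 with 75th percentile scaling of the processed and the normexp signals. Pyruvate kinase, which ends the pathway, is represented by a probe for Pkm2 (16.77 and 17.02 against 17.04 and 16.92). It differed by -0.09 and did not pass (adjusted p = 0.55), and nothing in the files shows that it separates the 2 splice forms of the gene, now named Pkm.

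Gapdh, the oxidising enzyme of the pathway and a common reference gene, had 7 probes. The brightest was at 18.77 and 18.78 against 18.89 and 18.91, and differed by -0.12 (adjusted p = 0.19 in limma, not past the threshold). Its spot was saturated on 1 array, so this difference and its test are not reliable. The other 6 probes, saturated on no array, differed by -0.56 to -0.26, and 4 of them passed as lower. Under both 75th percentile scalings all 7, the saturated one included, passed as lower, with a median of -0.67 for the processed and -0.65 for the normexp signals against -0.40 as analysed here. One probe lies on chromosome 8 (94212520 to 94212579) and the others on chromosome 6, and Gapdh has many processed copies in the mouse genome, so the probes of this gene are uncertain.

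Both lactate dehydrogenase genes, whose products turn pyruvate into lactate and back, were lower. Ldha (the muscle-type subunit; chromosome 7, 54110937 to 54110996) was at 16.81 and 16.85 against 17.88 and 17.78, a difference of -0.998 (SE 0.08, adjusted p = 0.00091 in limma), and its 2 dimmer probes differed by -1.52 and -1.43. Ldhb (the heart-type subunit; chromosome 6, 142438770 to 142438829) was at 14.32 and 14.26 against 15.15 and 15.23, a difference of -0.90 (SE 0.07, adjusted p = 0.0011). Neither gene's groups overlapped. Pdk1, a kinase that keeps pyruvate out of the mitochondrial citric acid cycle, was at 9.69 and 9.81 against 9.97 and 9.91, a difference of -0.19 that did not pass (adjusted p = 0.11). Taking the transport, glycolysis and lactate genes as a group, 5 of the 23 tested were higher and 10 lower, beside 23.3% and 28.6% of all probes. Their median difference was -0.22 beside -0.05 over all probes, and it was -0.35 and -0.33 with the processed and the normexp signals scaled to the 75th percentile and -0.12 with cyclic loess.

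**Figure D2:**
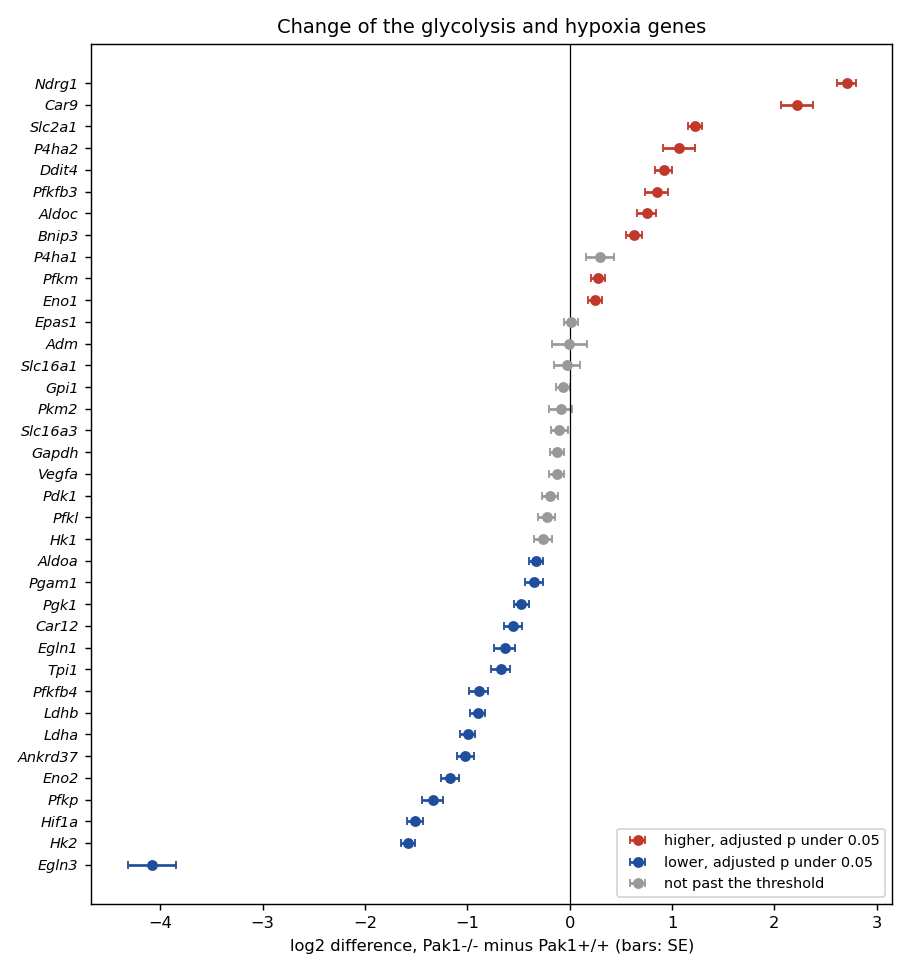
Difference in log2 intensity, Pak1-/- minus Pak1+/+ (x axis), of the 37 genes tested, ordered by size, with bars for the standard error and colours for the call in limma. The genes run from -4.08 for Egln3 to 2.71 for Ndrg1, with 10 higher and 15 lower at an adjusted p under 0.05.

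The oxygen-sensing genes held the deepest drop of the 38. Hif1a (HIF-1alpha; chromosome 12, 75047269 to 75047329) was at 11.44 and 11.49 on the arrays labelled Pak1-/- and at 13.03 and 12.92 on those labelled Pak1+/+. The difference was -1.51 (SE 0.08, adjusted p = 0.00033 in limma), or 2.85-fold lower, with no overlap. Epas1 (HIF-2alpha) was at 14.23 and 14.19 against 14.23 and 14.16, with overlapping groups and a difference of 0.01 (SE 0.07) that did not pass (adjusted p = 0.89), and its dimmer probes differed by 0.28 and 0.15 without passing.

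Egln3 (PHD3, a prolyl hydroxylase and itself a well known HIF target; chromosome 12, 55280953 to 55281012) was at 9.05 and 9.68 against 13.59 and 13.30. The lowest value of the arrays labelled Pak1+/+ was thus above the highest of the others by several log2 units. The difference was -4.08 (SE 0.24, adjusted p = 0.00048 in limma), a 16.9-fold lower level. Its dimmer probe (chromosome 12, 55281252 to 55281311) was at 8.80 and 8.70 against 12.55 and 12.26, a difference of -3.65 or 12.6-fold lower (adjusted p = 0.00013). Egln1 (PHD2, the hydroxylase held to be the main oxygen sensor; chromosome 8, 127432487 to 127432499) was at 8.49 and 8.72 against 9.21 and 9.26, a difference of -0.64 (SE 0.10, adjusted p = 0.0070).

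The genes listed as hypoxia targets went both ways, with 5 of 10 higher and 2 lower, beside 23.3% and 28.6% of all probes. Egln3, itself a HIF target, and the glycolysis genes are not among these 10. Ndrg1 (a stress-responsive gene that rises in hypoxia; chromosome 15, 66761057 to 66761116) was at 13.15 and 13.24 on the arrays labelled Pak1-/- and at 10.40 and 10.57 on the others. It was higher by 2.71 (SE 0.09, adjusted p = 0.00013 in limma), or 6.53-fold. Car9 (carbonic anhydrase 9, a membrane enzyme that controls pH and is widely used as a hypoxia marker; chromosome 4, 43526518 to 43526577) was at 13.81 and 13.41 against 11.32 and 11.47, higher by 2.22 (SE 0.16, adjusted p = 0.00076) or 4.65-fold. P4ha2, a catalytic subunit of the enzyme that hydroxylates collagen, was at 13.25 and 13.20 against 11.94 and 12.37, higher by 1.07 (SE 0.16, adjusted p = 0.0055).

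Ddit4 (REDD1, a stress-induced brake on mTORC1; chromosome 10, 59412486 to 59412545) was at 16.85 and 16.93 against 16.03 and 15.91, higher by 0.92 (SE 0.08, adjusted p = 0.0014 in limma). Bnip3, which acts in mitophagy, was at 12.70 and 12.60 against 12.06 and 11.98, higher by 0.63 (adjusted p = 0.0034). Of its dimmer probes, one was higher by 0.58 and the other, at 0.20, did not pass. In all 5 of these higher genes both arrays labelled Pak1-/- were above both others. The groups did not overlap for 78.2% of all probes, so that count is not read as a result.

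The lower genes of this list of targets were Ankrd37 and Car12. Ankrd37 (an ankyrin repeat gene known as a HIF-1 target; chromosome 8, 47082404 to 47082463) was at 7.99 and 8.10 against 9.11 and 9.02, a difference of -1.02 (SE 0.08, adjusted p = 0.0010 in limma). Car12, the other membrane carbonic anhydrase of the group, was at 11.42 and 11.56 against 12.10 and 11.99, a difference of -0.55 (SE 0.09, adjusted p = 0.0070). Vegfa, Adm and P4ha1 did not pass. Vegfa, the main growth factor for blood vessels, was at 13.22 and 13.14 against 13.32 and 13.28 (-0.12, adjusted p = 0.21). Adm (adrenomedullin, a vasodilator peptide) was at 9.72 and 9.39 against 9.38 and 9.74, a difference of -0.0014 with a standard error of 0.17. P4ha1 was at 9.04 and 8.73 against 8.51 and 8.67, a difference of 0.30 (adjusted p = 0.13). The P4ha1 difference was 0.14 without Pak1-/- replicate 1 and 0.45 without Pak1-/- replicate 2. A dimmer P4ha1 probe was not well above background on the arrays labelled Pak1+/+ and entered the test only through those labelled Pak1-/-. It has only a bound, at least 1.15-fold higher.

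The HIF system and its targets together had 5 higher and 5 lower genes of 14, beside 23.3% and 28.6% of all probes, and a median difference of 0.0057, beside -0.05 over all probes. That median changed sign with single samples: it was -0.084 without Pak1-/- replicate 1, 0.097 without Pak1-/- replicate 2, -0.028 without Pak1+/+ replicate 1 and 0.077 without Pak1+/+ replicate 2.

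Ratios between related genes on the same array were compared between the groups. The 14 pairs were set by family, and only the shift of the ratio between groups is read, as a description with no test. The groups did not overlap in 11 of the 13 pairs in which both genes were above background, where single probes did not overlap in 78.2% of cases, so that count is not read as a result. The ratio of Egln1 to Egln3 shifted most, by 3.45 on the log2 scale (10.9-fold towards Egln1 in the arrays labelled Pak1-/-), followed by Car9 to Car12 (2.77, 6.82-fold towards Car9). Pfkfb3 to Pfkfb4 shifted by 1.74 (3.34-fold), Pfkm to Pfkp by 1.61 (3.06-fold), Eno1 to Eno2 by 1.41 (2.66-fold), Hk1 to Hk2 by 1.32 (2.50-fold) and Pfkl to Pfkp by 1.12 (2.17-fold), each towards the first gene named. Shifts towards the second gene were those of Hif1a to Epas1 (-1.52, 2.87-fold), Aldoa to Aldoc (-1.08, 2.12-fold), P4ha1 to P4ha2 (-0.77, 1.71-fold) and Pfkl to Pfkm (-0.50, 1.41-fold). No ratio is given for Slc2a1 to Slc2a3, since Slc2a3 was dim on every array. Ldha to Ldhb (-0.10) and Slc16a1 to Slc16a3 (0.07) overlapped.

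**Figure D3:**
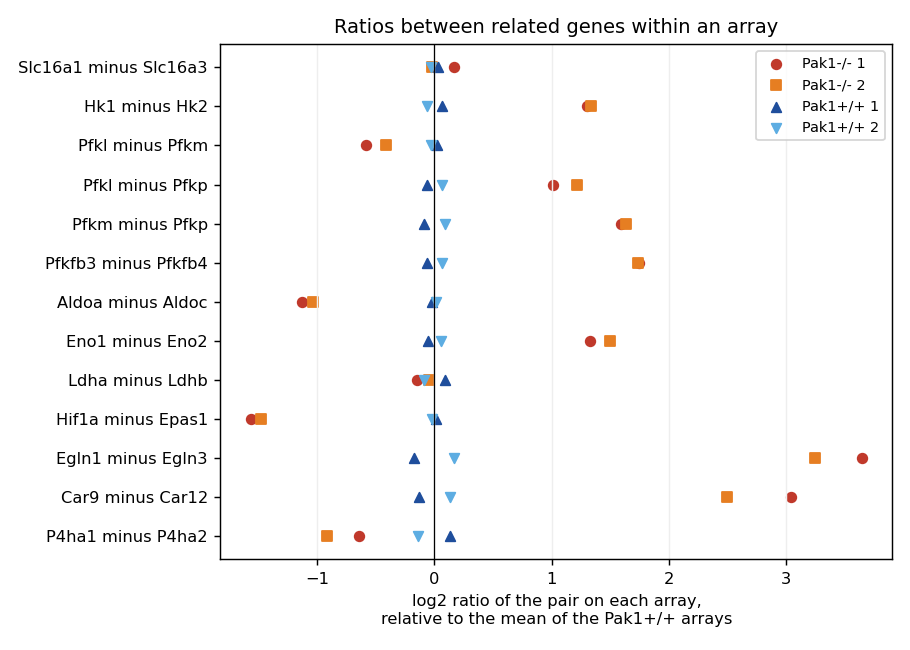
Log2 ratio of 13 pairs of related genes on each of the 4 arrays, relative to the mean of the arrays labelled Pak1+/+ (x axis, 0 line). The pairs Egln1 to Egln3 and Car9 to Car12 lie farthest to the right on both arrays labelled Pak1-/-, shifted by 3.45 and 2.77, and the points of the groups overlap for Ldha to Ldhb and Slc16a1 to Slc16a3.

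Another scaling of the arrays moved the brightest probes, among them many of glycolysis, in 1 direction. A level of 16, chosen after the values were seen, separates 10 of the 37 tested genes (Gpi1, Aldoa, Tpi1, Gapdh, Pgk1, Pgam1, Eno1, Pkm2, Ldha and Ddit4). After quantile normalization 5 of them were lower and 2 higher, with a median difference of -0.23. With the processed signals scaled to the 75th percentile 6 were lower and 1 higher, and the median was -0.48, each gene having shifted by -0.31 to -0.20. With the normexp signals scaled in that way 7 were lower and 1 higher, and the median was -0.46. The same was seen over all 1369 tested probes above that level, whose median went from -0.07 to -0.33 and -0.31 and of which 30.6%, 50.3% and 52.8% passed as lower. Cyclic loess kept 5 lower and 2 higher of the 10. The other 27 genes shifted by -0.23 to 0.12 under the first scaling and by -0.06 to 0.05 under the second. The changes of Aldoa, Tpi1, Pgk1, Pgam1, Ldha and Ddit4 kept their direction and call under all of these scalings. The calls of Aldoa and Pgam1 did not hold in every fit that left out a sample.

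**Figure D4:**
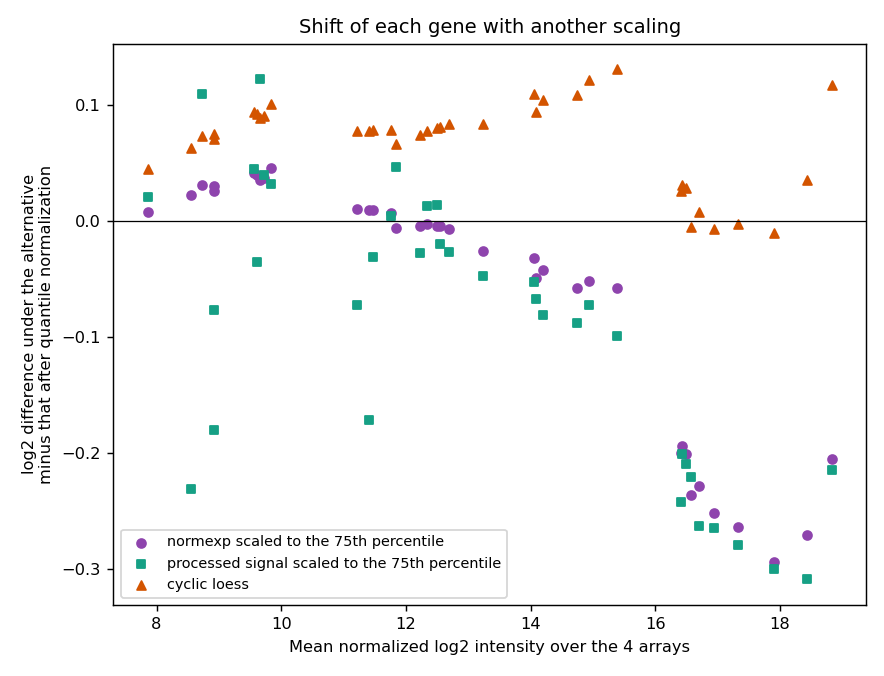
Shift of the log2 difference of each tested gene under 3 other scalings (y axis, alternative minus quantile normalization) against its mean normalized log2 intensity (x axis). Under both 75th percentile scalings the 10 genes above an intensity of 16 lie between -0.31 and -0.19, while with cyclic loess they lie between -0.01 and 0.12.

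Further genes of the same pathways were read from lists that also hold the rest of glycolysis, the pentose phosphate pathway, the HIF system and other hypoxia targets. Of 96 such genes 86 were tested, 26 were higher and 22 lower, and the fitted differences of 13 and 7 of those were at least 2-fold. Of the 13, Slc2a2 was dim on the arrays labelled Pak1+/+ and has only a bound, at least 1.38-fold. Over all probes 23.3% were higher and 28.6% lower (6.94% and 5.6% at least 2-fold). Their median difference was -0.0068. By list, 9 of 36 tested genes were higher and 12 lower in the rest of glycolysis and pyruvate use, 2 and 2 of 7 in the pentose phosphate pathway, 1 and 2 of 11 in the rest of the HIF system, and 14 and 6 of 32 among other hypoxia targets.

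In the HIF system, Arnt (the partner of both HIF-alpha proteins) was at 12.94 and 12.78 against 12.20 and 12.08 and was higher by 0.72 (SE 0.09, adjusted p = 0.0036 in limma). Its relative Arnt2 was lower by 1.41, and Cul2, a scaffold of the Vhl ubiquitin ligase, differed by -0.53 and was lower too. Vhl (0.05, adjusted p = 0.59), Egln2 (PHD1; -0.04, adjusted p = 0.63) and Hif1an (the asparagine hydroxylase of HIF; -0.25, adjusted p = 0.10) did not pass.

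Among other hypoxia targets, Pgf and Angptl4 were the farthest apart between the groups. Pgf (placental growth factor) was at 12.45 and 12.75 against 8.59 and 8.65, higher by 3.98 (SE 0.12, adjusted p = 0.00011 in limma) or 15.8-fold. Angptl4, which inhibits lipoprotein lipase, was at 12.90 and 13.18 against 9.59 and 9.44, higher by 3.53 or 11.5-fold. Stc2 (stanniocalcin 2) was higher by 2.48, Pdgfb (a platelet-derived growth factor chain) by 2.25 and Plod1 (a collagen lysyl hydroxylase) by 1.79. Flt1, a receptor for Vegfa and Pgf, was at 8.26 and 8.25 against 10.63 and 10.64, a difference of -2.38 or 5.21-fold lower.

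In the rest of glucose and pyruvate use, Slc2a6 (a glucose transporter family member) was higher by 2.09, Ldhd (a D-lactate dehydrogenase) by 2.34, Fbp1 (the gluconeogenic enzyme that opposes phosphofructokinase) by 2.03 and Pdhb (a subunit of pyruvate dehydrogenase) by 1.63, or by 0.86 with the mean over the probes of the gene. Pdk4, a pyruvate dehydrogenase kinase, was at 6.58 and 6.36 against 9.48 and 9.44. It was not well above background on the arrays labelled Pak1-/- and entered the test only through those labelled Pak1+/+. Only a bound is therefore given, at least 7.08-fold lower in the arrays labelled Pak1-/-.

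**Figure D5:**
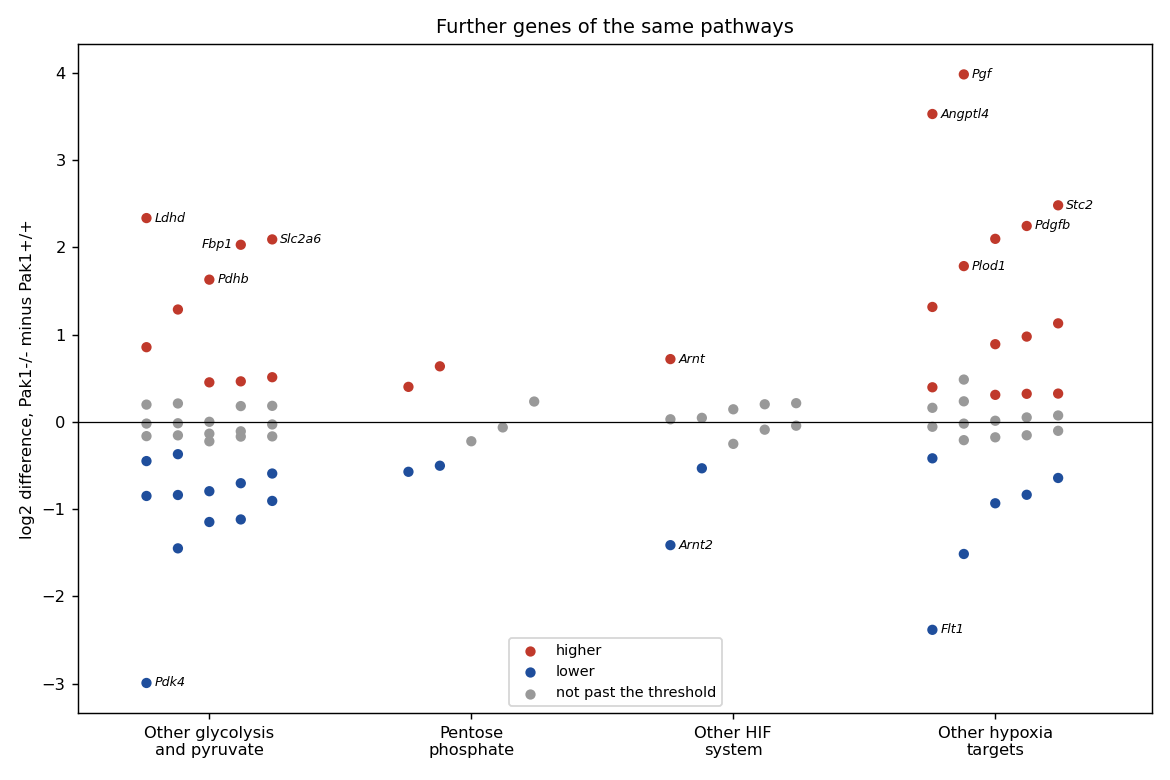
Log2 difference, Pak1-/- minus Pak1+/+ (y axis), of the 86 further pathway genes tested, in 4 lists, with colours for the call in limma and names beside some of the genes given in the text. Pgf (3.98) and Angptl4 (3.53) lie highest, Flt1 (-2.38) is the lowest of the genes above background in both groups, and the point of Pdk4, dim on the arrays labelled Pak1-/-, has only a bound.

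Where the genes had more than 1 probe, the probes tested shared their sign, though not always their call or size. Of 23 further probes for 14 of the 38 genes, 21 were tested, 21 had the sign of the brightest probe, and 0 passed in the opposite direction in limma.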

How the data were processed

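Total RNA of 4 mouse samples was hybridised to single-colour (Cy3) Agilent arrays with 60-base probes. The authors deposited scanner files of linear intensity from Feature Extraction 9.5.3.1 and a table of log2 values, which their methods describe as normexp corrected and quantile normalized. Here those steps were repeated on the scanner intensities with limma 3.58.1 (R 4.3.3), using a normexp offset of 50, which the methods do not state and which understates changes of dim probes. A probe was kept if 2 or more of the 4 arrays had it well above background (27229 of 39429, 69.1%). Groups were compared with lmFit and eBayes, two-sided, genotype as the only term, with Benjamini-Hochberg adjustment over all probes kept and a threshold of 0.05. The number of arrays limits the precision, and an exact permutation test of 2 against 2 cannot go below 0.333. A probe dim in a whole group has only a bound, given as "at least".

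Alternatives covered background correction, scaling, filter, threshold, choice of probe, variance trend, replicate block and leaving out each sample. Probe coordinates are those of the files (mm9). Named genes were all 38 members, Pak1, the 12 largest changes among further pathway genes past the threshold and at least 2-fold, Arnt, Vhl, Egln2 and Hif1an, and examples of marker lists. One of the 12 is not reported here. Arnt2, Cul2, Slc2a2 and further markers were named after their values were seen. The members, lists and rules were chosen with earlier results of these data known.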

Additional observations from a re-analysis of the deposited data

How the results depend on the processing

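Over 16 alternatives, 10 of the 25 called genes kept their call in all and 11 lost it only with an added 2-fold requirement. The other 4 were Aldoa, Eno1, Pfkm and Pgam1. Of 591 values of single genes under the alternatives, 525 kept direction and call, 37 lost the call, 11 gained one and 18 changed sign. The gained calls were those of Hk1 (4), Gapdh (4), Gpi1 and Pfkl as lower and P4ha1 as higher. An adjusted p under 0.01 left 8878 probes. The 2-fold requirement, set on the fitted difference, left 3413 probes, 4 higher and 6 lower members, and 13 higher and 7 lower further pathway genes. Slc2a2 is among the 13 although its bound is 1.38-fold. The replicate numbers did not pair the samples (correlation of deviations -0.028). With the replicate block 13211 probes passed, 8 members were higher and 15 lower, and the calls of Eno1 and Pfkm were lost.

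The median over all members was -0.28 with processed signals scaled to the 75th percentile, -0.30 with normexp signals scaled so, -0.19 with the mean over a gene's probes and -0.21 to -0.15 in the leave-one-out fits. That of the transport, glycolysis and lactate genes was -0.35, -0.33, -0.33 in these 3 settings and -0.12 with cyclic loess. That of the HIF system and targets was -0.012 with processed signals, 0.11 with cyclic loess, 0.027 in the deposited table, 0.072 with the mean over probes and -0.084 to 0.097 in the leave-one-out fits.

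The 18 sign changes among the members came from Adm, Slc16a1, Epas1, Pkm2 and the called gene Eno1. Slc16a1 was at 0.013 and 0.011 with processed and normexp signals scaled to the 75th percentile, 0.011 in the deposited table, 0.064 with cyclic loess and -0.19 to 0.14 in the leave-one-out fits. Adm was at 0.043 and 0.041 with those scalings, 0.016 in the deposited table, 0.092 with cyclic loess and -0.18 to 0.17 leave-one-out. Epas1 was at -0.068 and -0.029 with those scalings and -0.022 to 0.048 leave-one-out. Eno1 was at -0.056 and -0.049 with those scalings and Pkm2 at -0.21 to 0.039 leave-one-out. Of the further genes named, Egln2 changed sign, to 0.066 with cyclic loess. The cause was not tested. Leave-one-out fits took the lone sample to vary like the other group. Signal over background limits what can be said of Slc2a2, Slc2a3 and Pdk4.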
